A study of Rattus norvegicus with 18 samples.

Results

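The p53 target genes described here are a list of 35 symbols that the transcription factor p53 is known to activate in human and mouse cells. The members were taken by name, with no threshold on a measured value, although the list was drawn up with earlier results of these data known. Of the 35 symbols, 32 were read from the deposited count table of 33898 genes, and 31 had enough counts to be tested among the 14184 genes tested. Bbc3, Tnfrsf10b and Trp53inp1 were not analysed here under those symbols. The gene that the reference table from RefSeq gives as the current name of Trp53inp1, Tp53inp1, was read among the further p53 targets.

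The libraries came from nucleus pulposus cells, which form the soft centre of the disc between vertebrae, taken from Sprague Dawley rats aged 8 weeks and grown in serum-containing medium. Cells were given PDS, Phen-DC3 or Braco-19 for 24 hours, and each of the 3 compounds, which bind and stabilise G-quadruplexes (stacked folds in G-rich nucleic acid), had 3 libraries. The 3 control groups, PDS control, Phen-DC3 control and a control group whose titles name no compound (here the unnamed control), also had 3 libraries each. The unnamed control was set against Braco-19 by elimination, and doses are not in the labels.

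Library totals lay between 15715121 and 18369443 counts. Genes over 5000 bases took 8.67 ± 0.29% of the counts with PDS, 7.99 ± 0.52% with Phen-DC3, 24.2 ± 0.95% with Braco-19, 8.66 ± 0.59% in the PDS control, 9.99 ± 0.74% in the Phen-DC3 control and 25.3 ± 0.18% in the unnamed control (SD, n = 3 each). The Braco-19 and unnamed control libraries therefore stood apart from the other 12. Squared differences between 2 libraries of 1 group, relative to counting error, were 14.9 to 39.9 per gene in the Phen-DC3 control and 4.49 to 19.2 in the other 5 groups. Of 14 nucleus pulposus markers read, 9 could be tested, and their summed level was 187 to 232 CPM (counts scaled to library size, given on TMM-scaled totals). In each group 6 or 7 of the 14 were under 1 CPM on average. Of these, the notochord markers Tbxt, Krt19, Shh and Noto were at 0 in every group. The 7 fibroblast markers read summed to between 2653 and 7542 CPM.

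p53 is held at a low level by the ubiquitin ligase Mdm2 and is released from it when DNA damage kinases or ribosomal stress act on either protein. Released p53 binds a response element built from pairs of a ten-base motif and raises genes that stop the cell cycle, repair DNA, adjust metabolism and redox balance or start apoptosis. It also raises Mdm2 itself, which closes a feedback loop. In disc cells the pathway is studied for its part in senescence and cell loss.

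Levels of the members covered a wide range. On the RPKM scale, which divides CPM by gene length, averaged over the 18 libraries, Rps27l had 214, Phlda3 171, Ccng1 121, Gadd45a 84.5, Bax 77.3 and Mdm2 65.9 RPKM. Rps27l has a near-identical paralog, Rps27, with which reads could have been shared, so its level is uncertain. At the other end, Eda2r had 1.42, Sfn 1.25 and Pidd1 0.434 RPKM. Perp, which encodes a membrane protein of epithelial junctions and apoptosis, had 1 count in all 18 libraries and was at 0 in 17 of them. It was not tested, and 3 counts, the limit that a count of 0 allows, are 0.162 to 0.187 CPM in these libraries. Such limits cover counting error only.

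The first comparison was PDS against the PDS control. With PDS, 7 of the 31 tested members rose and 1 fell by edgeR's quasi-likelihood test (Benjamini-Hochberg adjusted p under 0.05 over all tested genes), and 23 did not pass. The members that rose were Gdf15, Plk3, Btg2, Mdm2, Ccng1, Pmaip1 and Aen, by 1.19-fold to 1.99-fold, and Xpc fell. Over all genes tested, 5.13% were called higher and 2.96% lower. With upper-quartile scaling the 728 higher and 420 lower genes of all tested became 575 higher and 527 lower. The median log2 fold change of the members was 0.14, against 0.02 over all genes. All PDS libraries lay above all PDS control libraries for 11 members and below them for 1, and they overlapped for 19. Over all genes the libraries lay apart upward in 17.7% and downward in 15.6%. Of 5 smooth muscle markers tested, Tagln rose (log2 0.49 ± 0.11, adjusted p = 0.012), while Acta2, Myh11, Cnn1 and Mcam did not pass and Rgs5 was at 0; the part of that in the members was not tested. In these bulk samples, fewer cells of a type and less RNA per cell cannot be told apart. By role, 2 of 4 feedback genes, 2 of 8 cell death genes and 3 of 9 arrest and growth genes rose, 1 of 5 DNA repair genes fell, and none of 5 metabolic genes passed (smallest adjusted p 0.34, Sesn1).

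**Figure D1:**
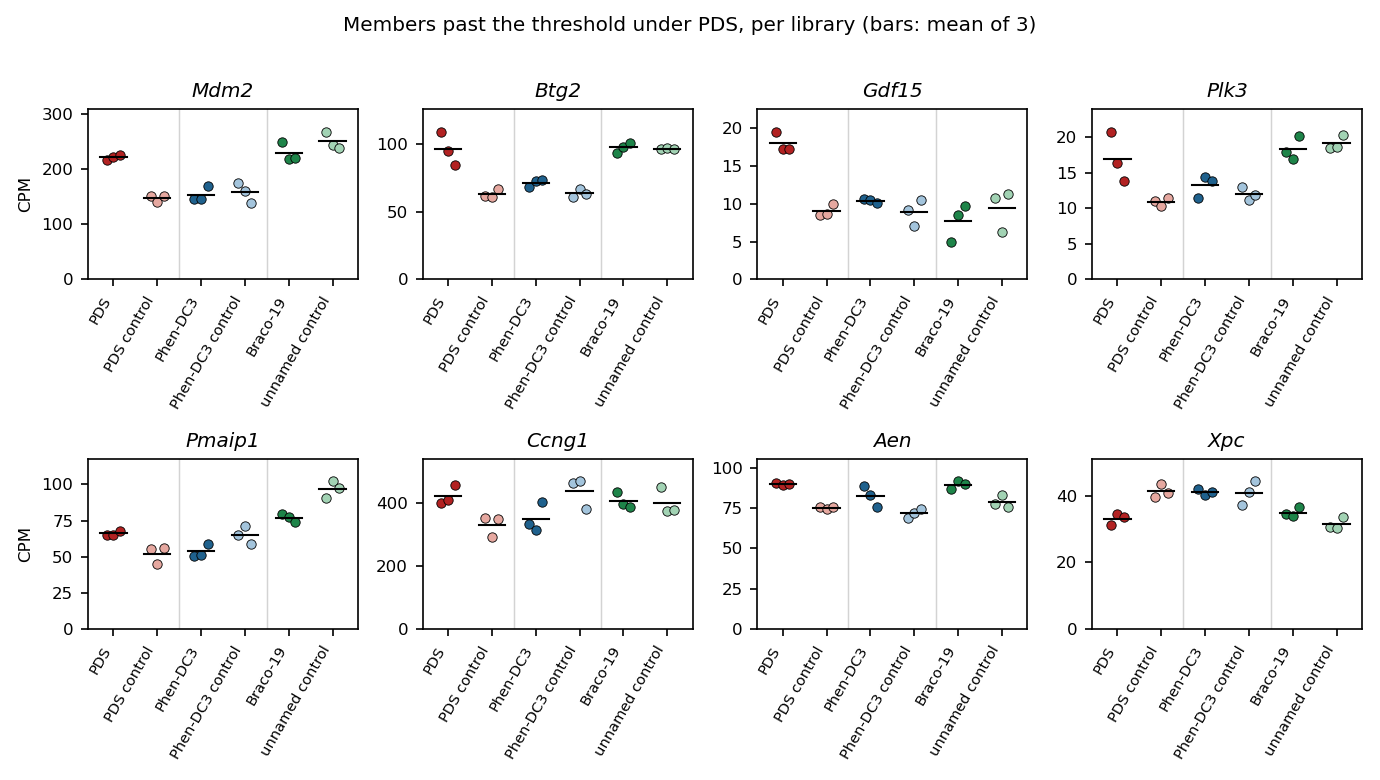
CPM (vertical axis, from 0) of the 8 members called with PDS in every library of the 6 groups, each compound left of its control. Points are the 3 libraries of a group in the order of their numbers and lines are their means. The PDS libraries lie apart from the PDS control libraries for all 8 genes, and Xpc is the 1 that is lower.

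Among the feedback genes, Mdm2, the ubiquitin ligase that marks p53 for destruction (ENSRNOG00000006304, chromosome 7, 60719066 to 60743328, minus strand, by the deposited table, for which no build was given), had 217, 221 and 226 CPM with PDS, against 151, 141 and 151 CPM in the PDS control. The lowest PDS library was well above the highest control library. The rise was log2 0.58 ± 0.08 (SE, adjusted p = 0.00012). Ccng1, cyclin G1, a partner of the phosphatase PP2A that acts on Mdm2 (ENSRNOG00000003256), had 401, 407 and 457 CPM with PDS, against 352, 292 and 349 CPM in the PDS control. The groups did not overlap, but the rise was smaller (log2 0.35 ± 0.11, adjusted p = 0.047). It lost its call when any 1 of the 6 libraries was left out, with an adjusted p of up to 0.21. Mdm4, the relative of Mdm2 that masks the activation domain of p53, had 6.82, 5.89 and 8.34 CPM with PDS, against 7.44, 4.48 and 7.85 CPM in the PDS control, and the libraries overlapped (log2 0.09 ± 0.23, adjusted p = 0.85). Ppm1d, the phosphatase Wip1 that switches off the damage kinases, had 20.3, 19.3 and 18.2 CPM with PDS, against 21.3, 20.1 and 17.7 CPM in the PDS control (log2 -0.03 ± 0.10, adjusted p = 0.88).

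The arrest and growth genes held the largest rises. Gdf15, a secreted member of the TGF-beta family that is used as a marker of cell stress (ENSRNOG00000019661, chromosome 16, 20555395 to 20557978, plus strand, in the deposited table), had 19.6, 17.3 and 17.3 CPM with PDS, against 8.52, 8.66 and 9.94 CPM in the PDS control. Its level was 1.99-fold that of the control (log2 0.99 ± 0.21, adjusted p = 0.0064). Btg2, an antiproliferative cofactor of mRNA deadenylation (ENSRNOG00000003300, chromosome 13, 50913180 to 50916982, minus strand), had 109, 94.5 and 84.7 CPM with PDS, against 61.7, 60.9 and 67.0 CPM in the PDS control. All PDS libraries were above the controls, with a spread among them (log2 0.60 ± 0.08, adjusted p = 5.0e-05). Plk3, a polo-like kinase of the stress response (ENSRNOG00000018484, chromosome 5, 135997725 to 136002900, minus strand), had 20.8, 16.3 and 13.8 CPM with PDS, against 11.1, 10.3 and 11.4 CPM in the PDS control. Its rise was log2 0.63 ± 0.13 (adjusted p = 0.0052).

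The other 6 members of that group did not pass. Zmat3, an RNA-binding zinc finger protein that acts in splicing, had 22.6, 21.2 and 22.7 CPM with PDS, against 20.7, 21.1 and 18.3 CPM in the PDS control. Its libraries lay apart by a narrow margin (log2 0.14 ± 0.10, adjusted p = 0.42). Gadd45a, a growth arrest and repair protein, had 99.8, 87.1 and 85.0 CPM with PDS, against 109, 96.7 and 110 CPM in the PDS control (log2 -0.22 ± 0.14, adjusted p = 0.37). Rps27l, a ribosomal protein paralog, had 186, 142 and 132 CPM with PDS, against 175, 184 and 227 CPM in the PDS control (log2 -0.35 ± 0.21, adjusted p = 0.35). The kinase Plk2 (log2 0.21 ± 0.12), the phosphatase Ptp4a1 (log2 0.24 ± 0.16) and Sfn, the 14-3-3 sigma protein of the G2 arrest (log2 0.36 ± 0.43), had adjusted p of 0.30, 0.37 and 0.65.

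Of the cell death genes, Pmaip1 and Aen rose. Pmaip1, the BH3-only protein Noxa, had 65.3, 65.1 and 68.1 CPM with PDS, against 55.3, 44.9 and 56.1 CPM in the PDS control. The rise was log2 0.34 ± 0.09 (adjusted p = 0.021), and its call was lost without PDS control replicate 2 or without any 1 PDS library. Aen, an exonuclease of apoptotic nuclei, had 90.4, 89.4 and 89.6 CPM with PDS, against 75.3, 74.3 and 75.8 CPM in the PDS control. Its libraries were tightly grouped and well apart (log2 0.26 ± 0.07, adjusted p = 0.021), yet the call was lost when any 1 of the 6 libraries was left out, with an adjusted p of up to 0.081.

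The better known death genes did not pass. Bax, the pore-forming protein of the mitochondrial outer membrane, had 117, 108 and 107 CPM with PDS, against 105, 124 and 130 CPM in the PDS control, and the groups overlapped (log2 -0.11, 95% interval -0.49 to 0.26, adjusted p = 0.73). Fas, the death receptor, had 41.9, 42.0 and 44.2 CPM with PDS, against 47.5, 43.7 and 49.1 CPM in the PDS control (log2 -0.13, interval -0.31 to 0.05, adjusted p = 0.34). Phlda3, a repressor of the kinase Akt, had 296, 275 and 261 CPM with PDS, against 288, 294 and 294 CPM in the PDS control. Its interval ran from -0.48 to 0.33 around log2 -0.07 (adjusted p = 0.85). Ei24, a protein of the endoplasmic reticulum, the receptor Eda2r and Pidd1, a scaffold for caspase-2 activation, had log2 values of -0.03 ± 0.07, 0.29 ± 0.31 and -0.01 ± 0.81. The last is the least precise of the tested members, with 1 to 42 counts per library.

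Xpc, which recognises distorted DNA in nucleotide excision repair (ENSRNOG00000008274, chromosome 4, 123134457 to 123161985, minus strand), was the member that fell. It had 31.1, 34.6 and 33.8 CPM with PDS, against 39.7, 43.6 and 40.9 CPM in the PDS control (log2 -0.32 ± 0.08, adjusted p = 0.017). Leaving out PDS control replicate 2, PDS replicate 1 or PDS replicate 3 ended the call. Ddb2, the other damage sensor of that pathway on the list, had 6.82, 5.11 and 5.58 CPM with PDS, against 5.80, 5.60 and 4.07 CPM in the PDS control, and the libraries overlapped (log2 0.18, interval -0.26 to 0.61, adjusted p = 0.62). Ercc5, the endonuclease XPG, had 6.52, 6.01 and 7.93 CPM with PDS, against 5.44, 5.18 and 4.91 CPM in the PDS control, which lay apart but did not pass (log2 0.40 ± 0.14, adjusted p = 0.091). The translesion polymerase Polk (log2 0.45 ± 0.21) and Rrm2b, the p53-inducible subunit of ribonucleotide reductase (log2 0.20 ± 0.22), had adjusted p of 0.20 and 0.60.

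The metabolic, redox and autophagy genes had values on both sides of 0. Sesn1, an inhibitor of mTORC1 signalling, had a log2 fold change of -0.21 ± 0.13 with PDS, Ephx1, an epoxide hydrolase, one of -0.24 ± 0.15, and Fdxr, ferredoxin reductase of mitochondria, one of -0.06 ± 0.24. Tigar, which lowers glycolytic flux, and Dram1, a lysosomal regulator of autophagy, both had 0.03, with SE of 0.12 and 0.10.

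The gene models of the 8 called members had 912 (Gdf15), 2373 (Aen), 2389 (Plk3), 2562 (Btg2), 2763 (Pmaip1), 2930 (Mdm2), 3239 (Ccng1) and 3633 bases (Xpc). Tested members ran from 704 (Rps27l) to 3803 bases (Polk). The Spearman correlation of log2 fold change with gene length was 0.163 over the 31 members and 0.174 over all genes, and after a correction for length all 8 were still called, with log2 values of 1.05 for Gdf15, 0.61 for Plk3, 0.58 for Btg2, 0.54 for Mdm2, 0.31 for Pmaip1, 0.30 for Ccng1, 0.23 for Aen and -0.38 for Xpc.

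Because the compounds bind G-quadruplexes, the promoter sequences of Mdm2 and of the 3 further members with the smallest p with PDS (Btg2, Plk3 and Gdf15) are shown. They are from RefSeq on build GRCr8, from 250 bases before to 50 bases after the annotated start, 5′ to 3′ on the strand of the gene. Capitals mark a quadruplex motif, 4 runs of at least 3 G with 1 to 7 bases of any kind between the runs, searched on both strands. Stretches that share bases with a marked one were not marked, so lower-case letters beside it can also meet the rule. In Mdm2 the motif is on the other strand and reads as runs of C.
Mdm2: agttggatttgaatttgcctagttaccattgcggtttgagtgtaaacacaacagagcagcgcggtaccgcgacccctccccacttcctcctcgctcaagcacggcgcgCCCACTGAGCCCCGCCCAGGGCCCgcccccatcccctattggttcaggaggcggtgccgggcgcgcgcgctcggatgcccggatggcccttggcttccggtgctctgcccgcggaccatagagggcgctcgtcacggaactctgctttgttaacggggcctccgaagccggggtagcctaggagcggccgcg
Btg2: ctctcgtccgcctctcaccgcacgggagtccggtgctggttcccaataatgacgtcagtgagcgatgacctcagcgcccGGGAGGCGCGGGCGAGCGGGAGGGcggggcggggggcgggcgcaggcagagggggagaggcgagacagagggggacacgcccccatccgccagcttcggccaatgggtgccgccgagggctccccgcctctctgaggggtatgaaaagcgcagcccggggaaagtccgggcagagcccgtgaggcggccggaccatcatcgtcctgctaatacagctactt
Plk3: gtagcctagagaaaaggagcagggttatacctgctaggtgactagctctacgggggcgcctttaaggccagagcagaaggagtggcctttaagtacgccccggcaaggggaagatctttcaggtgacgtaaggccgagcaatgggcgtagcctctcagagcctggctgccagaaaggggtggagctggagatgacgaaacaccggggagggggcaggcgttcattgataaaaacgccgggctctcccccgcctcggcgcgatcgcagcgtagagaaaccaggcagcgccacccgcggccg
Gdf15: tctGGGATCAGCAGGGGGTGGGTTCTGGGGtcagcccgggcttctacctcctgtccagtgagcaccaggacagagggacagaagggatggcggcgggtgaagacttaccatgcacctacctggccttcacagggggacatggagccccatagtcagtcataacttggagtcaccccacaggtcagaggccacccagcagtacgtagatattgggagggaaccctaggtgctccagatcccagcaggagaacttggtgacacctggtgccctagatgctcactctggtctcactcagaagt
The windows are chr7:55200742-55201041 (minus strand), chr13:48087641-48087940 (minus), chr5:135848851-135849150 (minus) and chr16:18838186-18838485 (plus). The Plk3 window holds no such motif.

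Promoters were matched for 28 of the 35 members, and 9 of the 28 (32.1%) held the quadruplex motif, against 25.2% of 9640 genes tested here and 17.0% of 27457 genes in all. Of the 7 members that rose with PDS, 3 held it, in Mdm2, Btg2 and Gdf15. It was also present in Ephx1, Phlda3, Dram1, Ei24, Polk and Sfn, none of which passed the test with PDS. The median GC content was 62.5% in the members' promoters, 61.0% in those of genes tested here and 52.3% in all.

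The p53 consensus decamer, 1 arm of the response element and its own reverse complement, was found in 6 of the 28 promoters (21.4%), against 6.74% of genes tested here and 7.89% of all. Of the members that rose with PDS, Aen and Ccng1 held it, 30 and 232 bases before the start. Gadd45a held it 48 bases before the start, and its libraries overlapped with PDS. The match is shown in capitals with 10 bases on either side, on the strand of the gene.
Aen: agccgaagccGGGCATGTCCgggcaagcaa
Ccng1: agacctgcccGGGCAAGCCTtggcattgaa
Gadd45a: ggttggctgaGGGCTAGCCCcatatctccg
The capitals are at chr1:142224503-142224512 (plus strand), chr10:25685099-25685108 (minus) and chr4:97486838-97486847 (minus). Ei24, Pidd1 and Sesn1 also held the decamer, and Ei24 held both motifs. A match describes the letters of this window only, and p53 elements can lie outside it.

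The second comparison was Phen-DC3 against the Phen-DC3 control. None of the 31 members passed edgeR's test, while 2.19% of all genes were called higher and 5.82% lower. At an unadjusted p under 0.05, 6 members were higher and 2 lower, against 12.5% and 16.4% of all genes. DESeq2 called 3 members higher (Aen, Phlda3 and Rps27l) and 2 lower (Ccng1 and Pmaip1), and 794 higher and 1262 lower over all genes. The median log2 fold change was 0.07 for members and -0.01 for all genes. Libraries lay apart for 7 members upward and 1 downward, against 10.1% and 11.9% of all genes. 

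The members that rose with PDS had other values here. Mdm2 had 145, 145 and 168 CPM with Phen-DC3, against 175, 161 and 139 CPM in the Phen-DC3 control, and the groups overlapped (log2 -0.05 ± 0.08, adjusted p = 0.73). Gdf15 had 10.6, 10.5 and 10.2 CPM with Phen-DC3, against 9.22, 7.06 and 10.5 CPM in the control (log2 0.22 ± 0.22, adjusted p = 0.53). Btg2 had 67.9, 72.5 and 73.3 CPM with Phen-DC3, against 60.8, 67.1 and 63.3 CPM in the control, apart by a narrow margin (log2 0.16 ± 0.08, adjusted p = 0.19). Plk3 had 11.5, 14.4 and 13.8 CPM with Phen-DC3, against 13.0, 11.2 and 11.9 CPM in the control (log2 0.14 ± 0.14, adjusted p = 0.54). None of these 4 genes passed. Aen, with 88.5, 82.9 and 75.4 CPM against 69.0, 72.0 and 74.2 CPM in the control, came to log2 0.20 ± 0.07 (adjusted p = 0.069). Xpc had 42.1, 40.2 and 41.1 CPM with Phen-DC3, against 37.4, 41.2 and 44.3 CPM in the control (log2 0.01 ± 0.08, adjusted p = 0.98).

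Ccng1 and Pmaip1 were on the lower side with Phen-DC3. Ccng1 had 331, 313 and 403 CPM with Phen-DC3, against 464, 468 and 380 CPM in the control (log2 -0.32 ± 0.11, adjusted p = 0.060). Pmaip1 had 50.9, 51.3 and 58.8 CPM with Phen-DC3, against 65.3, 71.4 and 58.9 CPM in the control (log2 -0.28 ± 0.09, adjusted p = 0.058). In both genes the libraries numbered 3 lay towards the opposite group.

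Bax and Phlda3 showed the same arrangement on the higher side. Bax had 142, 165 and 101 CPM with Phen-DC3, against 86.6, 90.9 and 137 CPM in the control (log2 0.37, interval 0.00 to 0.75, adjusted p = 0.16). Phlda3 had 377, 392 and 256 CPM with Phen-DC3, against 202, 236 and 319 CPM in the control (log2 0.44, interval 0.03 to 0.84, adjusted p = 0.14). For both, replicate 3 of Phen-DC3 lay within the range of the control libraries, and replicate 3 of the control within that of the Phen-DC3 libraries. Without Phen-DC3 control replicate 3 the fit called 4 members higher (Bax, Aen, Phlda3 and Fdxr) and 2 lower (Ccng1 and Pmaip1), and without Phen-DC3 replicate 3 it called 3 higher (Bax, Aen and Phlda3) and the same 2 lower. Shares over all genes are not given for these fits, so the counts are no result about the members as a list. The part of the libraries numbered 3 in the result beyond these values was not tested.

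Zmat3, Ddb2 and Fas did not pass either. Zmat3 had 19.7, 22.0 and 20.3 CPM with Phen-DC3, against 18.8, 17.9 and 21.8 CPM in the control (log2 0.08 ± 0.10, adjusted p = 0.63). Ddb2 had 5.74, 4.51 and 7.90 CPM with Phen-DC3, against 5.05, 5.46 and 5.37 CPM in the control (log2 0.19 ± 0.20, adjusted p = 0.55). Fas had 56.5, 55.6 and 54.2 CPM with Phen-DC3, against 51.5, 53.9 and 53.5 CPM in the control, apart by less than the spread within the control (log2 0.07 ± 0.08, adjusted p = 0.64).

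Gene length moved with the values under Phen-DC3. The Spearman correlation of log2 fold change with length was -0.566 over the 31 members, from the same 6 libraries, and -0.443 over all genes. Of the 16 members of up to 2389 bases, 13 had values above 0 (median log2 0.20), and of the 15 longer ones 8 had (median 0.01). The part of length in these values was not tested.

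**Figure D2:**
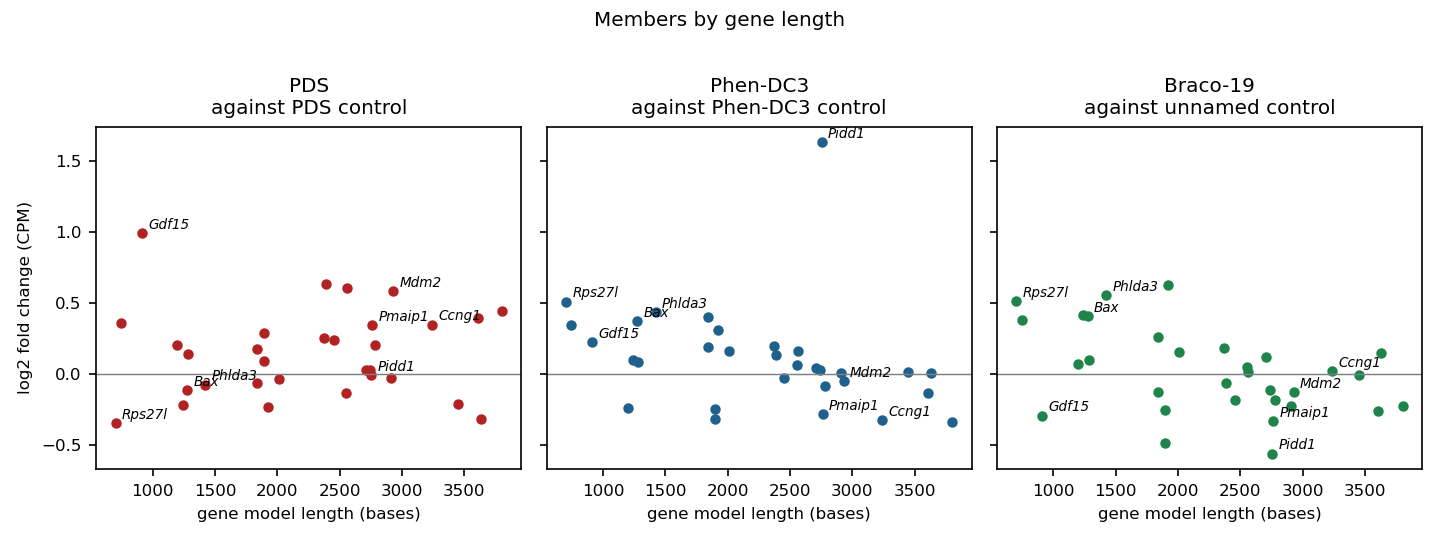
Log2 fold change of the 31 tested members against the length of the gene model in bases, a panel per compound. Points are members. Shorter members lie higher with Phen-DC3 and Braco-19, with Spearman correlations of -0.566 and -0.460, against 0.163 with PDS.

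The third comparison, Braco-19 against the unnamed control, called no member by edgeR's test. Few genes passed at all, 0.169% higher and 0.106% lower. At an unadjusted p under 0.05, 7 members were higher and 3 lower, against 11.4% and 7.39% of all genes. DESeq2 called 1 member higher (Phlda3) and 1 lower (Pmaip1), and 198 higher and 135 lower over all genes. A fit of these 6 libraries alone called 3 members higher (Bax, Gadd45a and Rps27l) and 1 lower (Pmaip1), and 433 higher and 348 lower over all genes. The median log2 value was 0.01 for members and 0.00 for all genes. Libraries lay apart upward for 8 members and downward for 4, against 13.7% and 14.4% of all genes.

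Bax, Phlda3 and Gadd45a had values above 0 with Braco-19, and Mdm2 and Pmaip1 values below 0, none of them past the threshold. Bax had 61.9, 70.4 and 74.2 CPM with Braco-19, against 49.8, 52.0 and 53.7 CPM in the unnamed control (log2 0.41, interval 0.03 to 0.79, adjusted p = 0.23). Phlda3 had 133, 181 and 211 CPM with Braco-19, against 113, 123 and 121 CPM in the unnamed control (log2 0.55, interval 0.14 to 0.96, adjusted p = 0.17). Both were without overlap, with a wide spread among the Braco-19 libraries for Phlda3. Gadd45a had 91.4, 108 and 105 CPM with Braco-19, against 67.1, 81.6 and 79.1 CPM in the unnamed control (log2 0.42 ± 0.14, adjusted p = 0.16). Mdm2 had 248, 218 and 220 CPM with Braco-19, against 267, 243 and 238 CPM in the unnamed control (log2 -0.13 ± 0.08, adjusted p = 0.41). Pmaip1 had 79.3, 77.4 and 74.0 CPM with Braco-19, against 90.4, 102 and 97.8 CPM in the unnamed control, without overlap (log2 -0.33 ± 0.09, adjusted p = 0.11).

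Several other members overlapped between Braco-19 and the unnamed control. Ccng1 had 436, 396 and 386 CPM with Braco-19, against 449, 374 and 376 CPM in the unnamed control (log2 0.02 ± 0.11). Gdf15 had 4.93, 8.46 and 9.71 CPM with Braco-19, against 10.8, 6.23 and 11.3 CPM in the unnamed control (log2 -0.29 ± 0.22). Zmat3 had 29.6, 29.5 and 36.7 CPM with Braco-19, against 29.5, 28.5 and 31.6 CPM in the unnamed control (log2 0.10 ± 0.10). Their adjusted p were 0.93, 0.47 and 0.61. Fas had 24.1, 27.4 and 25.1 CPM with Braco-19, against 27.3, 24.9 and 21.8 CPM in the unnamed control, and Ddb2 had 4.20, 5.39 and 4.47 CPM, against 5.60, 4.69 and 5.05 CPM. Btg2 had 93.6, 98.1 and 101 CPM with Braco-19, against 96.5, 96.9 and 96.0 CPM in the unnamed control (log2 0.01 ± 0.08). Plk3 had 17.9, 16.9 and 20.2 CPM with Braco-19, against 18.5, 18.6 and 20.3 CPM in the unnamed control (log2 -0.06 ± 0.13). Both were level within their spread, while Aen and Xpc lay apart upward without passing. Aen had 86.6, 91.5 and 89.9 CPM with Braco-19, against 77.2, 83.0 and 75.3 CPM in the unnamed control (log2 0.19 ± 0.07, adjusted p = 0.17). Xpc had 34.5, 33.8 and 36.5 CPM with Braco-19, against 30.7, 30.3 and 33.7 CPM in the unnamed control (log2 0.15 ± 0.08, adjusted p = 0.33). Length again moved with the values, with a Spearman correlation of -0.460 over the members and -0.225 over all genes. Its part was not tested.

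**Figure D3:**
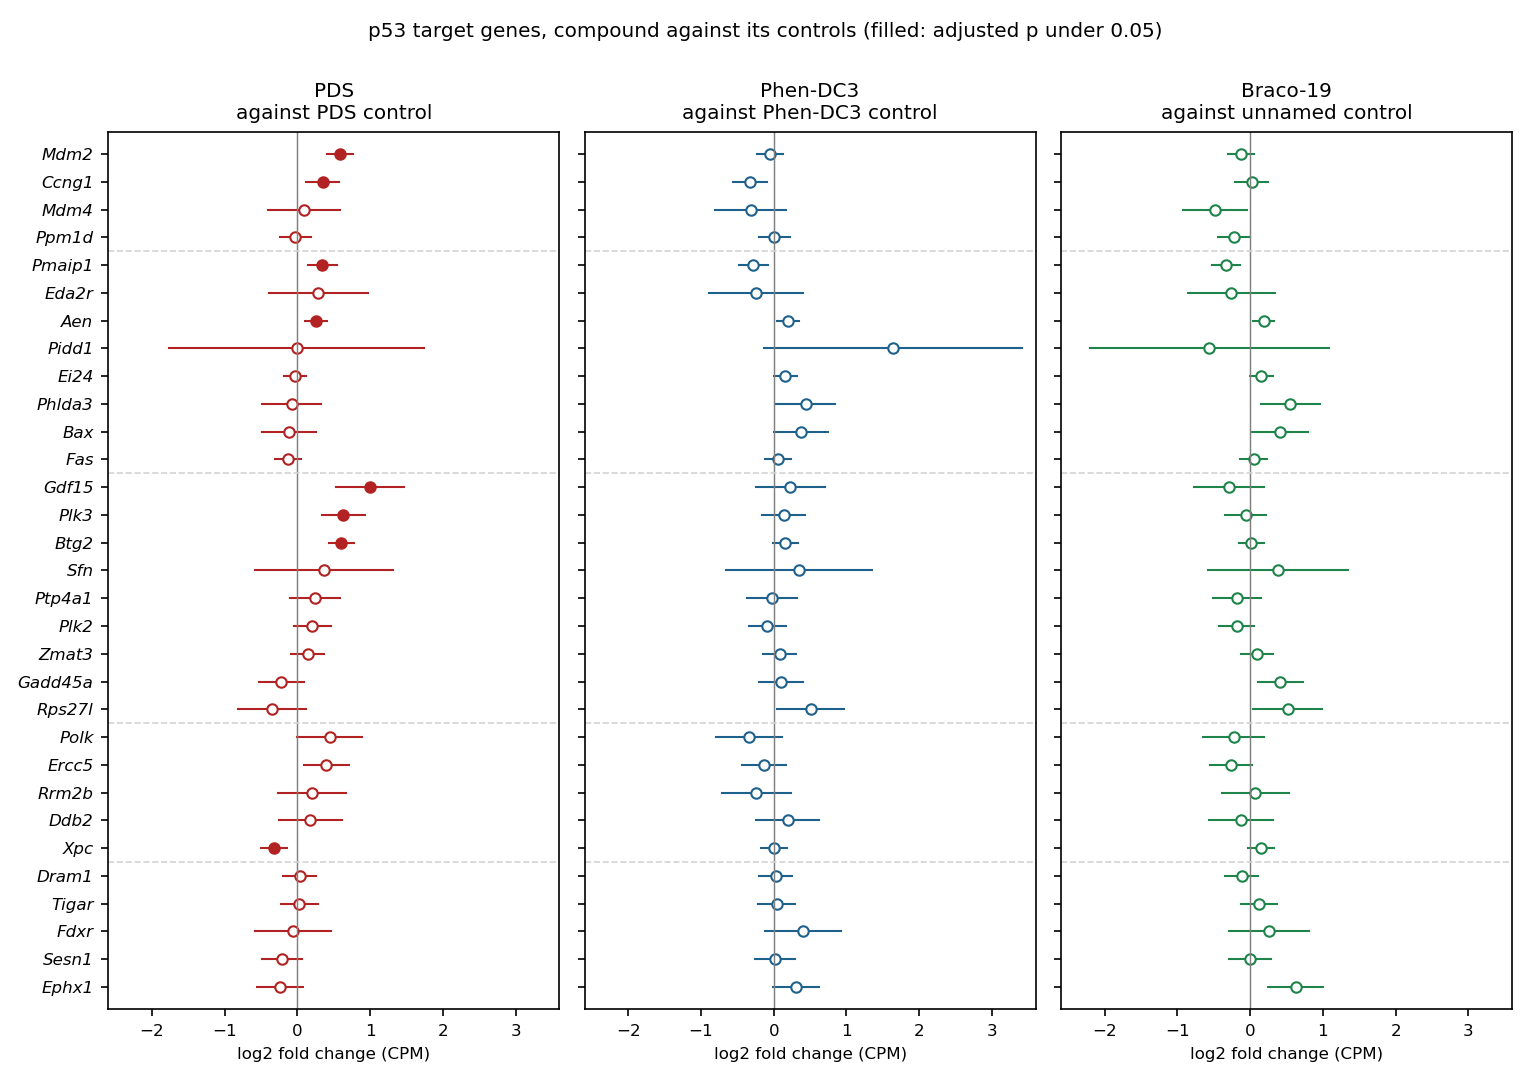
Log2 fold change of the 31 tested members with 95% intervals (from the standard errors with 12 degrees of freedom), a panel each for PDS, Phen-DC3 and Braco-19 against their controls. Dashed lines separate the roles, and filled points are members past the threshold, 8 with PDS and 0 with Phen-DC3 or Braco-19. Pidd1 has the widest intervals.

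**Figure D4:**
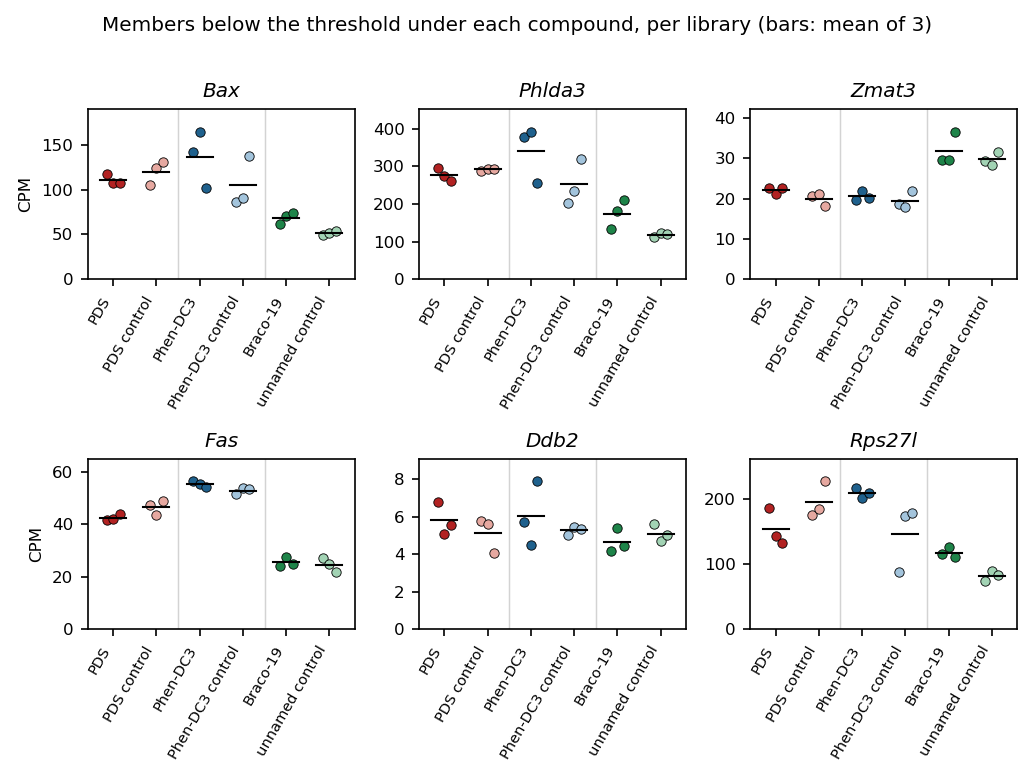
CPM (vertical axis, from 0) in every library of the 6 groups, each compound left of its control, for Bax, Phlda3, Zmat3, Fas, Ddb2 and Rps27l, which passed in no compound comparison. Points are the 3 libraries of a group in the order of their numbers and lines are their means. The libraries numbered 3 of Phen-DC3 and its control lie towards the opposite group for Bax and Phlda3.

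Whether compounds differed in their effects was tested as the difference between 2 effects, each compound against its own control, for all 3 pairs, with p adjusted over all tested genes within a pair. Doses are not in the labels, so it is not known whether they were matched. PDS is an abbreviation in the labels, Phen-DC3 is a bisquinolinium compound and Braco-19 a trisubstituted acridine. The comparisons of PDS with Phen-DC3 and with Braco-19 share the PDS and PDS control libraries.

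Against the Phen-DC3 effect, the PDS effect was higher for 4 members and lower for 1, with 12.4% and 7.76% of all genes called. The higher ones were Ccng1 (difference of log2 fold changes 0.67 ± 0.15, adjusted p = 0.0061), Mdm2 (0.63 ± 0.12, adjusted p = 0.0021), Pmaip1 (0.63 ± 0.13, adjusted p = 0.0039) and Btg2 (0.44 ± 0.11, adjusted p = 0.012). Xpc was lower, at -0.33 ± 0.11 (adjusted p = 0.048), and lost the call in 12 of 20 alternatives. The difference was 0.77 (interval 0.11 to 1.44, adjusted p = 0.078) for Gdf15 and 0.50 (interval 0.08 to 0.91, adjusted p = 0.067) for Plk3, and neither passed. For Aen it was 0.06, with an interval of -0.15 to 0.27. These shares are near or below those of all genes, so the count is no result about the members as a list.

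Against the Braco-19 effect, the PDS effect was higher for 6 members and lower for 3, with 7.28% and 6.75% of all genes called. The higher ones were Gdf15 (1.29 ± 0.31, adjusted p = 0.012), Mdm2 (0.71 ± 0.12, adjusted p = 0.00087), Plk3 (0.70 ± 0.19, adjusted p = 0.021), Pmaip1 (0.68 ± 0.13, adjusted p = 0.0026), Ercc5 (0.66 ± 0.19, adjusted p = 0.031) and Btg2 (0.59 ± 0.11, adjusted p = 0.0028). The lower ones were Ephx1 (-0.86 ± 0.23, adjusted p = 0.018), Gadd45a (-0.64 ± 0.20, adjusted p = 0.042) and Xpc (-0.47 ± 0.11, adjusted p = 0.013).

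Ercc5, Ephx1 and Gadd45a passed here although they passed in neither compound's own comparison. Ercc5 had 11.2, 9.75 and 9.10 CPM with Braco-19, against 12, 11.7 and 12.2 CPM in the unnamed control, and its values with PDS lay on the other side of the PDS control. Ephx1 had 12.4, 11.4 and 13.4 CPM with PDS, against 11.7, 16.7 and 15.5 CPM in the PDS control. With Braco-19 it had 5.04, 4.25 and 3.85 CPM, against 3.23, 3.03 and 2.24 CPM in the unnamed control, without overlap. Of 20 alternatives, the call was lost in 11 for Gadd45a, 8 for Ercc5, 3 for Plk3 and 2 for Ephx1. For Ccng1 the difference was 0.33 (interval 0.00 to 0.65, adjusted p = 0.14), and for Aen it was 0.07 (interval -0.14 to 0.28).

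Between the Phen-DC3 and Braco-19 effects no member passed edgeR's test, nor DESeq2's, with 0.0141% and 0.0353% of all genes called higher and lower. At an unadjusted p under 0.05, 0 members were higher and 1, Ccng1, was lower, against 3.31% and 6.16% of all genes. The difference was 0.07 (interval -0.18 to 0.33) for Mdm2, 0.15 (interval -0.10 to 0.39) for Btg2 and 0.01 (interval -0.19 to 0.22) for Aen.

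The control groups were compared with one another because the 2 baselines differed. Between the PDS control and the Phen-DC3 control, 0 members were higher and 2 lower, with 1.59% and 4.5% of all genes called. The 2 were Ccng1 (352, 292 and 349 CPM in the PDS control, against 464, 468 and 380 CPM in the Phen-DC3 control, log2 -0.40 ± 0.11, adjusted p = 0.035) and Pmaip1 (55.3, 44.9 and 56.1 CPM, against 65.3, 71.4 and 58.9 CPM, log2 -0.32 ± 0.09, adjusted p = 0.041). Both lost the call after correction for gene length and in a fit of these 6 libraries alone. The next smallest p were for Ercc5 (log2 -0.42 ± 0.14), Eda2r (-0.79 ± 0.31), Fas (-0.18 ± 0.08) and Ei24 (0.14 ± 0.07), with adjusted p of 0.076, 0.11, 0.18 and 0.20.

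Against the unnamed control, 10 members were higher and 12 lower in the PDS control, with 35.6% and 37.7% of all genes called. In the Phen-DC3 control, 10 were higher and 11 lower, with 34.6% and 34.9%. These shares are near those of all genes and are no result about the members as a list, and both comparisons share the unnamed control libraries. Summed levels of cell type markers differed between the baselines, while single markers of a list went both ways. Smooth muscle markers (6 read) summed to 1553 to 1710 CPM in the PDS control and 1377 to 1630 CPM in the Phen-DC3 control, against 452 to 665 CPM in the unnamed control. Fibroblast markers (7 read) summed to 2765 to 3136 CPM in the PDS control and 3127 to 3195 CPM in the Phen-DC3 control, against 5757 to 6912 CPM in the unnamed control. Of the 7, 1 was called higher and 4 lower in the PDS control, and 3 higher and 4 lower in the Phen-DC3 control. Macrophage and leukocyte markers (8 read, with Ptprc, C1qa and C1qb at 0) summed to 108 to 114 CPM in the PDS control and 95.5 to 107 CPM in the Phen-DC3 control, against 34.5 to 42.4 CPM in the unnamed control. Of these 8 markers, 6 were under 1 CPM on average in each of the control groups. Only 3 could be tested, and in both comparisons 1 was called higher and 2 lower. The part of these shifts in the members was not tested. Ephx1 differed most, with 11.7, 16.7 and 15.5 CPM in the PDS control and 13.6, 12.6 and 15.3 CPM in the Phen-DC3 control, against 3.23, 3.03 and 2.24 CPM in the unnamed control (log2 2.36 ± 0.16 and 2.28 ± 0.16). Fas was higher in both (log2 0.92 ± 0.08 and 1.10 ± 0.08) and so was Ei24 (0.81 ± 0.07 and 0.67 ± 0.07), all with an adjusted p of 4.5e-08 or less. Bax (log2 1.21 and 1.02), Phlda3 (1.30 and 1.08), Rps27l (1.25 and 0.84), Fdxr, Sesn1, Xpc and Gadd45a were also called higher in both.

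Members lower in the PDS control and in the Phen-DC3 control included Mdm2 (log2 -0.76 ± 0.08 in the PDS control and -0.66 ± 0.08 in the Phen-DC3 control), Mdm4 (-2.11 ± 0.22 and -1.77 ± 0.21) and Pmaip1 (-0.89 ± 0.09 and -0.57 ± 0.09). Btg2 (-0.61 ± 0.08 and -0.60 ± 0.08), Eda2r (-1.94 ± 0.30 and -1.15 ± 0.28), Polk (-1.61 ± 0.20 and -1.25 ± 0.20) and Ercc5 (-1.21 ± 0.14 and -0.79 ± 0.14) were also lower, as were Plk2, Plk3, Zmat3 and Ptp4a1. The Mdm2 level with PDS, 217 to 226 CPM, was below all unnamed control libraries (238 to 267 CPM). Gene length also differed between the baselines, with Spearman correlations of the log2 values with length of -0.496 and -0.474 over all genes. After correction for length, Ccng1 and Gadd45a turned in direction between the PDS control and the unnamed control, to log2 0.11 and -0.01, while both were called before it (-0.27 and 0.47).

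**Figure D5:**
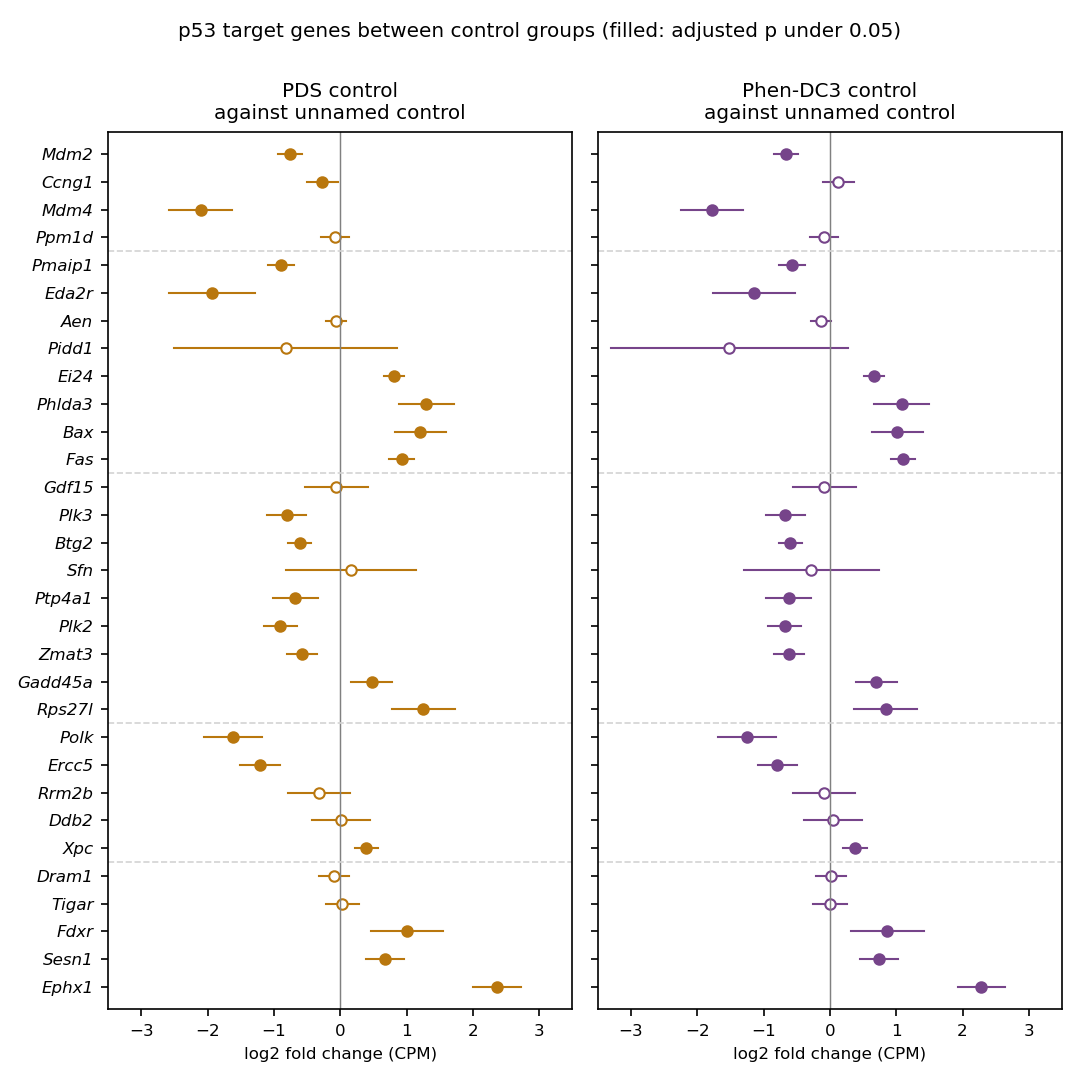
Log2 fold change of the 31 tested members between control groups, with 95% intervals, for the PDS control and the Phen-DC3 control, each against the unnamed control. Dashed lines separate the roles and filled points are members past the threshold. Values run from -2.11 (Mdm4) to 2.36 (Ephx1) in the PDS control, and Pidd1 has the widest intervals.

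Regulators and cofactors of p53 were read from a further list. Among those called with PDS, Ppp1r13l, the inhibitory p53 partner iASPP, had 28.7, 29.4 and 27.9 CPM with PDS, against 18.9, 21.1 and 18.2 CPM in the PDS control, a rise with no overlap (log2 0.56 ± 0.10, adjusted p = 0.0017). Usp7, the deubiquitinase of Mdm2, also rose (log2 0.31 ± 0.09, adjusted p = 0.049).

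With Phen-DC3, 6 of the 20 regulators tested fell, with 5.82% of all genes called lower. They were the acetyltransferases Ep300 (-0.93 ± 0.18) and Crebbp (-0.65 ± 0.13), the damage kinases Atr (-0.74 ± 0.15), Atm (-0.54 ± 0.12) and Prkdc (-0.68 ± 0.18), and Usp7 (-0.42 ± 0.09), with adjusted p of 0.011 to 0.030. None of the 6 was called in a fit of the Phen-DC3 and Phen-DC3 control libraries alone, where 0 of all genes were called lower, against 825 in the fit of 18 libraries and 24 after correction for gene length. No regulator passed with Braco-19.

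Further p53 targets outside the list numbered 40 symbols, of which 36 were tested. With PDS, 4 rose and 1 fell, with 5.13% and 2.96% of all genes called. Cdkn1a, the cyclin-dependent kinase inhibitor p21, had 405, 409 and 393 CPM with PDS, against 310, 319 and 328 CPM in the PDS control (log2 0.34 ± 0.07, adjusted p = 0.0054). It had 376, 373 and 315 CPM with Phen-DC3, against 272, 289 and 315 CPM in the Phen-DC3 control (log2 0.28 ± 0.07, adjusted p = 0.026), and 270, 295 and 299 CPM with Braco-19, against 245, 246 and 257 CPM in the unnamed control (log2 0.21 ± 0.07, adjusted p = 0.16). The difference between the PDS and Phen-DC3 effects on Cdkn1a was 0.06 ± 0.10 (adjusted p = 0.73). The cytokine Lif (0.88), the receptor kinase Epha2 (0.48) and the antiproliferative Btg1 (0.29) also rose with PDS, and Susd6 fell (-0.29).

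With Phen-DC3, Cdkn1a and the adhesion protein Ninj1 (0.26) rose, and Plxnb2 (-0.33), Ascc3 (-0.71) and Kitlg (-0.66) fell, 2 and 3 of the 36, with 2.19% and 5.82% of all genes called. A fit of the Phen-DC3 and Phen-DC3 control libraries alone called 1 higher and 0 lower over all genes, so the 3 falls and at least 1 of the 2 rises were not called there. None of the 36 passed with Braco-19. Tp53inp1 had log2 values of 0.44 ± 0.22 with PDS (adjusted p = 0.23), -0.36 ± 0.21 with Phen-DC3 (adjusted p = 0.27) and 0.05 ± 0.20 with Braco-19 (adjusted p = 0.91). Cell cycle genes that p53 is known to repress through p21 and the DREAM complex were read as a last list of 18 tested genes. With PDS 18 of 18 rose (median log2 0.44, against 0.02 over all genes), with 5.13% of all genes called higher. With Phen-DC3 1 rose and 2 fell, with 2.19% and 5.82% of all genes called, and with Braco-19 none passed. Between controls, 16 of the 18 were called lower and 1 higher in the PDS control than in the unnamed control (median log2 -1.32). Over all genes, 37.7% were called lower and 35.6% higher there. Against the Phen-DC3 control, 3 were called higher and 1 lower in the PDS control, with 1.59% and 4.5% of all genes called.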

How the data were processed

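RNA from 18 libraries was read from a table of raw counts per gene deposited by the authors, whole numbers that were not normalised. The submitters' processing notes name featureCounts 1.5.0-p3 for it, and CASAVA and HISAT2, both without a version. The deposited table also holds symbols, coordinates and gene lengths in bases. No source used here gives the genome build, the annotation release or the strandedness, so reads of overlapping or antisense genes cannot be told apart. All value columns were mapped to samples by their titles.

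The fits used edgeR 4.0.16 with limma 3.58.1 under R 4.3.3. The filter on low counts was filterByExpr with the groups, TMM factors scaled the libraries, and 1 quasi-likelihood model with robust dispersions and a mean per group was fitted to all 18 libraries (12 residual degrees of freedom), so the spread is shared by the 6 groups. P-values are two-sided and were adjusted by the Benjamini-Hochberg method over all tested genes of a comparison, with a threshold of 0.05. Standard errors were derived from the F statistics. CPM are on TMM-scaled library totals, and RPKM divides them by gene length. Libraries of a group are described as biological repeats, without a statement that separate cultures or animals were used, so p-values measure only the spread between these libraries, which may be technical. The labels name no molecular identifiers, so counting limits cover counting error only. The calling was tested on simulated data, with changes set in genes drawn from all levels. Of 100 genes changed by log2 0.5, it recovered 36 with PDS, 45 with Phen-DC3 and 28 with Braco-19. Of 100 changed by log2 1, it recovered 60, 68 and 68. A member that did not pass can therefore still have changed by such an amount.

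The members, roles and further gene lists were chosen with earlier results of these data known. All members are named. A gene of a further list is not reported here. Values per library are given for members past the threshold in a compound comparison or a difference of effects, and for Mdm2, Bax, Ccng1, Phlda3, Zmat3, Gdf15, Ddb2 and Fas. For control groups the 6 smallest p are named, and for further lists up to 6 called genes, with Cdkn1a always. Members given beyond this were chosen after their values were seen. Alternatives were RLE and upper-quartile scaling, no count filter, a filter of 1 CPM or more in at least 3 libraries, and DESeq2 1.42.0. Further ones were a correction for gene length, a fit of the compared groups alone, a replicate block and each library left out. Promoters are RefSeq sequences on GRCr8, and positions from the count table are never mixed with them.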

Additional observations from a re-analysis of the deposited data

Results flagged for a closer look

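The results listed here are differences between the effects of 2 compounds on a member, each compound against its own control, in log2 units, that passed the test of the difference in edgeR. Both sets use the same PDS and PDS control libraries.

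The PDS effect minus the Phen-DC3 effect was 0.63 for Mdm2, 0.67 for Ccng1, 0.63 for Pmaip1, 0.44 for Btg2 and -0.33 for Xpc. For Ccng1 and Pmaip1, the PDS control was also below the Phen-DC3 control (log2 -0.40 and -0.32), and that value enters the difference. The Btg2 call was lost without Phen-DC3 control replicate 2 (adjusted p = 0.050).

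The PDS effect minus the Braco-19 effect was 0.71 for Mdm2, 0.68 for Pmaip1, 0.59 for Btg2, 0.7 for Plk3, 1.29 for Gdf15, 0.66 for Ercc5, -0.47 for Xpc, -0.64 for Gadd45a and -0.86 for Ephx1. The PDS control and the unnamed control also differed for 8 of these 9 genes in the main fit, Gdf15 being the exception. After correction for gene length Gdf15 was called lower in the PDS control by edgeR (log2 -0.67, adjusted p = 0.0079), and Gadd45a was no longer called.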

How the results depend on the processing

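With PDS, Mdm2, Btg2, Plk3 and Gdf15 kept their calls in 14 of 14 alternatives, Xpc in 11, Pmaip1 in 10, Aen in 7 and Ccng1 in 6. For fits with 1 library left out, shares over all genes are not given, so their ranges are no result about the members as a list. Leaving out 1 library gave 4 to 5 members higher and 0 to 1 lower with PDS, 0 to 4 and 0 to 2 with Phen-DC3, and 0 and 0 with Braco-19. For differences of effects it gave 3 to 6 higher and 0 to 5 lower (PDS against Phen-DC3, the 5 without Phen-DC3 control replicate 3), 4 to 7 and 1 to 4 (PDS against Braco-19, the 1 without PDS control replicate 2 or unnamed control replicate 3), and 0 and 0 (Phen-DC3 against Braco-19). For controls it gave 0 to 1 and 0 to 2 (PDS against Phen-DC3), 10 and 11 to 13 (PDS against unnamed), and 9 to 10 and 11 (Phen-DC3 against unnamed). DESeq2 called 3 members higher and 2 lower with Phen-DC3, 1 and 1 with Braco-19, and 3 and 5 lower for the PDS effect against those of Phen-DC3 and Braco-19. Upper-quartile scaling called 1 lower with Phen-DC3 (Pmaip1). No count filter called 0 lower for the PDS effect against that of Phen-DC3. A fit of the compared groups alone called 2 lower with PDS, 3 higher and 1 lower with Braco-19, 0 lower in the PDS control against the Phen-DC3 control, and 0 and 6 lower for the PDS effect against those of Phen-DC3 and Braco-19.

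Correction for gene length left 0 lower in the PDS control against the Phen-DC3 control and reversed Ccng1 (0.11) and Gadd45a (-0.010) in the PDS control against the unnamed control. The median over all genes moved to 0.11 with upper-quartile scaling and to 0.10 with the length correction in the Phen-DC3 control against the unnamed control, and to 0.12 with the latter in the PDS control. The cause of these changes was not tested.

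Deviations from the group mean of libraries with the same number correlated at -0.12, -0.03 and -0.25 for Phen-DC3 and its control. The values were -0.036, 0.064 and 0.001 for PDS, and 0.058, 0.072 and 0.009 for Braco-19, each with its control. With 3 libraries per group, these values cannot show whether the replicate numbers pair the samples. A replicate block called 1 lower in the PDS control against the Phen-DC3 control and changed no other count of members called by over 1.5 times. Over all genes it called 172 higher with Phen-DC3, and 149 higher in the PDS control against the Phen-DC3 control.

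Counts over all genes moved more. Phen-DC3 had 311 higher and 825 lower genes, against 22 and 24 after length correction, 1 and 0 in a fit of its own 6 libraries, and 794 and 1262 by DESeq2. Braco-19 had 24 and 15, against 433 and 348 in its own fit and 198 and 135 by DESeq2. PDS had 420 lower, against 1066 in its own fit. The PDS effect against that of Phen-DC3 had 1761 higher, against 924 after length correction and 1132 in the own fit, and against that of Braco-19 957 lower, against 1727 in the own fit. The Phen-DC3 effect against that of Braco-19 had 2 and 5, against 20 and 26 by DESeq2. The PDS control against the Phen-DC3 control had 226 and 638, against 577 and 1029 by DESeq2, 2 and 1 in the own fit, and 293 lower after length correction. The lowest count in any library was 1 for Pidd1, 4 for Sfn and 15 for Eda2r.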
